A study of Rattus norvegicus with 23 samples.

Results

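MiR-143 and miR-145 are a pair of microRNAs (miRNAs, short RNAs that lower the output of the messenger RNAs they bind) that sit side by side in the rat genome. They are 2 of the 350 miRNAs on the array and were taken by name, rno-miR-143 and rno-miR-145. The rule uses no measured values, but earlier results of these data were known when the pair was chosen. All tissue came from female Sprague-Dawley rats: 8 mammary carcinomas that arose spontaneously, 8 that were induced by radiation, and 7 normal mammary tissues, each on 1 Agilent array of 1 colour. The study set the radiation-induced carcinomas against both other groups in search of miRNA patterns particular to them. The radiation dose and the age of the animals are not given in the labels. The 16 carcinomas carry 16 different codes, 5 of the spontaneous ones starting with K and the other 3, like the 8 radiation-induced ones, with M. Each RNA came from whole tissue, so fewer cells of a type and less miRNA per cell cannot be told apart. Whether each normal tissue is from a rat of its own is not given, and the spread among them may then be technical in part.

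In the mouse both miRNAs are abundant in vascular and visceral smooth muscle, where serum response factor and myocardin drive their shared precursor and where they help to keep cells in the contractile state. They are also made by fibroblasts and other mesenchymal cells, and far less by epithelial cells, so that in a carcinoma most of their signal can come from the stroma and vessels. In human cells, p53 promotes the cutting of their precursors by Drosha after DNA damage.

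The mature sequences are shown first because they tell how different the pair is in spite of the shared locus. They are RefSeq's, on assembly GRCr8. The array names give no arm, and the arms printed are those that carried these names before arms were added to them. Capitals mark the seed (bases 2 to 8, which pair with the target), and the positions are chr18:57371373-57371394 for miR-143-3p and chr18:57370033-57370055 for miR-145-5p, both on the minus strand.
rno-miR-143-3p: uGAGAUGAagcacuguagcuca
rno-miR-145-5p: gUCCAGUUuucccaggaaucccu
The seeds differ, the longest run of bases that the mature forms share is 3 bases, and neither seed occurs at bases 2 to 8 of any other of the 693 named rat mature miRNAs in the RefSeq table. The hairpins they are cut from lie 1278 bases apart, and the capitals now mark the mature arm, on the 3′ side of the Mir143 hairpin (chr18:57371349-57371453) and on the 5′ side of the Mir145 hairpin (chr18:57369983-57370070).
Mir143: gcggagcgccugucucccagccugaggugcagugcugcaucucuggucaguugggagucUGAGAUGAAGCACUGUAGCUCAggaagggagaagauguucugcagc
Mir145: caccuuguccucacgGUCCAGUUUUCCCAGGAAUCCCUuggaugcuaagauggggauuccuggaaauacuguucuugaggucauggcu
Both hairpins lie inside the long noncoding RNA gene Carmn (also named Mir143hg), on its strand, and no other hairpin of the table lies within 10000 bases of them.

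MiR-143 was strongly detected everywhere, at a level that was tight in normal tissue and scattered in the spontaneous carcinomas. Levels are processed intensities divided by each array's 75th percentile over 199 probes detected on all arrays and multiplied back to a common brightness, here called scaled signal. Each level belongs to 1 probe and cannot be set against that of another miRNA. In normal tissue the scaled signal of miR-143 was 4294 at its lowest, 4664 at the median and 7056 at its highest. In the radiation-induced carcinomas it was 3499 at its lowest, 6570 at the median and 13552 at its highest. In the spontaneous carcinomas it was 917 at its lowest, 3625 at the median and 6778 at its highest. The ranges of the 3 groups overlap, with the highest 4 arrays all from radiation-induced carcinomas and the lowest 3 all from spontaneous ones. Those 3 low arrays, spontaneous carcinomas 4, 3 and 1, had 917, 963 and 1113, while the next spontaneous array had 3596. All 3 carry K codes and lie on slides 1 and 2, and K-coded carcinoma 2, on slide 1, had 6306.

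On the log2 scale the mean level of miR-143 was 12.73 ± 0.71 (SD, n = 8) in the radiation-induced carcinomas, 12.34 ± 0.28 (SD, n = 7) in normal tissue and 11.43 ± 1.26 (SD, n = 8) in the spontaneous carcinomas. The order of the means is radiation-induced, normal, spontaneous, and neither pair of neighbours in it differed past the threshold of the test given below. The SD among the spontaneous carcinomas was larger than that of 85.4% of the 199 miRNAs tested, whose median SD there was 0.74, and the SD in normal tissue was near the median of 0.30. The up to 10 spots of the probe on an array, which show the noise within an array and not that between arrays, varied by a median of 2.15% (normal), 2.81% (radiation-induced) and 3.84% (spontaneous).

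**Figure D1:**
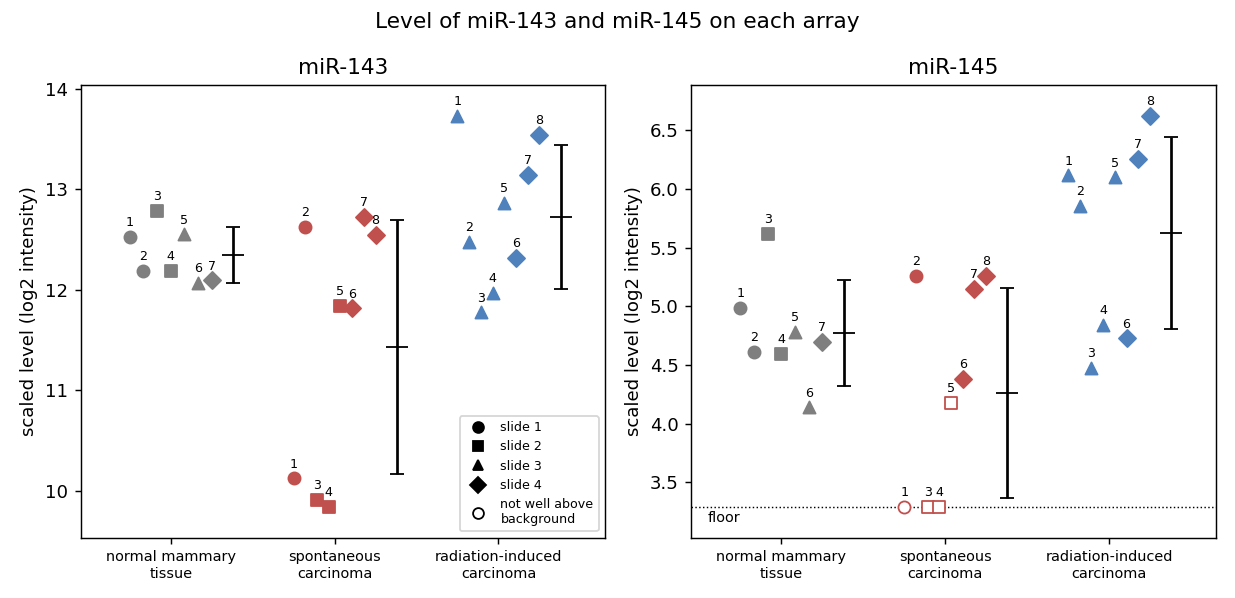
Scaled level (log2 intensity, vertical axis) of miR-143 (left) and miR-145 (right) on each of the 23 arrays, numbered within its group, with the group mean and SD as a bar beside it. Symbol shapes mark the 4 slides, open symbols mark arrays where the probe was not well above background, and the dotted line is the floor; spontaneous carcinomas 1, 3 and 4 are lowest in both panels.

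MiR-145 followed the same order but was measured near the limit of the array. Its probe was well above background on 7 of 7 normal arrays, on 8 of 8 radiation-induced arrays and on 4 of 8 spontaneous arrays (carcinomas 2, 6, 7 and 8). The scaled signal in the radiation-induced carcinomas was 22.3 at its lowest, 63.2 at the median and 98.3 at its highest. In normal tissue it was 17.6 at its lowest, 25.9 at the median and 49.1 at its highest. In the spontaneous carcinomas it was 4.42 at its lowest, 19.5 at the median and 38.2 at its highest, and carcinomas 1, 3 and 4 lay under the floor of 9.81 (log2 3.29) that was set for all arrays. The 5 highest arrays were all from radiation-induced carcinomas, and the other 3 of that group (22.3, 26.5 and 28.7) lay among the normal and spontaneous values. The mean log2 level, with the floor in place, was 5.62 ± 0.81 (SD, n = 8) in the radiation-induced carcinomas, 4.78 ± 0.45 (SD, n = 7) in normal tissue and 4.26 ± 0.89 (SD, n = 8) in the spontaneous carcinomas. The spontaneous arrays were dimmer, with a 75th percentile of 604 ± 175 (SD, n = 8) against 1161 ± 393 (SD, n = 8) and 1562 ± 560 (SD, n = 7) in the radiation-induced and normal groups. Their lowest scaled signal well above background ran from 12.02 to 29.7, all above the floor. The part of array brightness in the miR-145 result was tested only as a covariate, given with the comparison below.

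Both miRNAs were higher in the radiation-induced than in the spontaneous carcinomas. MiR-143 differed by 1.30 ± 0.42 on the log2 scale (SE, 2.46-fold, 95% interval 0.43 to 2.17), with an adjusted p of 0.0367 by limma with Benjamini-Hochberg adjustment over the 199 miRNAs. MiR-145 differed by 1.36 ± 0.37 (SE, 2.57-fold, 95% interval 0.60 to 2.12; limma adjusted p 0.0184), but by -0.10 with normexp background correction and an offset, a setting that adds more to the dim arrays after scaling. All 8 radiation-induced arrays lay above the spontaneous mean for each miRNA, and the 2 groups overlapped for each, as they did for all but 1.51% of the miRNAs tested. The same test called 18.1% of all 199 miRNAs, 8.04% higher and 10.1% lower, and by p miR-145 ranked at 11 and miR-143 at 28 among them. The median difference over all miRNAs tested was -0.02. An exact two-sided permutation test of the group means, adjusted over the 6 member comparisons, gave 0.0494 for miR-145 and 0.0687 for miR-143.

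Neither call held where slide or code was matched. With slide as a block the difference was 1.09 for miR-143 (limma adjusted p 0.213) and 1.38 for miR-145 (limma adjusted p 0.0921). Both kinds of carcinoma share a slide only on slide 4 (3 of each), where the differences were 0.64 and 0.94 (limma adjusted p 0.522 and 0.464). Its 3 spontaneous arrays are also the 3 M-coded ones: set against all 8 radiation-induced carcinomas, they gave 0.37 for miR-143 and 0.69 for miR-145 (limma adjusted p 0.577 and 0.346). With array brightness as a covariate the differences were 0.88 and 0.73 (limma adjusted p 0.533 for each). The calls were also lost when only the carcinomas were fitted (limma adjusted p 0.0967 for miR-143 and 0.0556 for miR-145) and with a raised floor of 29.7 (limma adjusted p 0.0566 and 0.0556), and that of miR-143 with quantile normalization (limma adjusted p 0.0872). For miR-143 the adjusted p rose above 0.05 when spontaneous carcinoma 1, 3 or 4, or radiation-induced carcinoma 1, 2, 5, 7 or 8, was left out, with differences from 1.07 to 1.48 and a highest adjusted p of 0.0779 over all arrays left out in turn. For miR-145 the call held with each of the 23 arrays left out.

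Against normal tissue the radiation-induced carcinomas did not pass the test for either miRNA, in a comparison that called 25.1% of all 199 (16.6% higher and 8.54% lower). The difference was 0.38 ± 0.43 for miR-143 (SE, 95% interval -0.52 to 1.28; limma adjusted p 0.572), with 5 of 8 carcinomas above the normal mean. It was 0.85 ± 0.38 for miR-145 (SE, 1.80-fold, 95% interval 0.06 to 1.63; limma adjusted p 0.101), with 6 of 8 above the normal mean and 5 of 8 above every normal array. The groups overlapped for each of the pair, and 9.05% of all miRNAs tested did not overlap. Within slide 3, which holds 5 radiation-induced carcinomas and 2 normal tissues, the differences were 0.25 and 1.02, and within slide 4, with 3 and 1, the values were 0.91 and 1.17. A slide block gave 0.09 for miR-143 and 0.74 for miR-145. The miR-145 difference passed the test in some settings, among them without the pair of carcinomas that lack miR-200 (spontaneous 1 and radiation-induced 3), at 1.01 (limma adjusted p 0.0226). Without radiation-induced carcinoma 3 alone it was also 1.01 (limma adjusted p 0.0368). The miR-143 difference was -0.03 without scaling.

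Neither miRNA passed the test between spontaneous carcinomas and normal tissue either, where 40.7% of all 199 miRNAs did (26.1% higher and 14.6% lower). The difference was -0.92 ± 0.43 for miR-143 (SE, 95% interval -1.81 to -0.02; limma adjusted p 0.0987) and -0.51 ± 0.38 for miR-145 (SE, 95% interval -1.30 to 0.27; limma adjusted p 0.290). For each of them 3 of 8 carcinomas lay above the normal mean, and the groups overlapped, while 15.6% of all miRNAs tested did not. The differences were -0.98 and -0.52 within slide 1 (2 carcinomas, 2 normal tissues), -1.96 and -1.52 within slide 2 (3 and 2), and 0.27 and 0.23 within slide 4, which holds 3 carcinomas and 1 normal tissue. The same 3 carcinomas, the M-coded ones, differed from all 7 normal tissues by 0.02 and 0.15 (limma adjusted p 0.970 and 0.840). With normexp and an offset miR-145 passed the test in the opposite direction (0.69, limma adjusted p 0.000523). A slide block gave -1.002 for miR-143 and -0.64 for miR-145. Scaling mattered as well, since the miR-143 difference passed the test with the 75th percentile over all probes (-1.38, limma adjusted p 0.0193), and so it did without spontaneous carcinoma 7 (-1.10, limma adjusted p 0.0463).

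**Figure D2:**
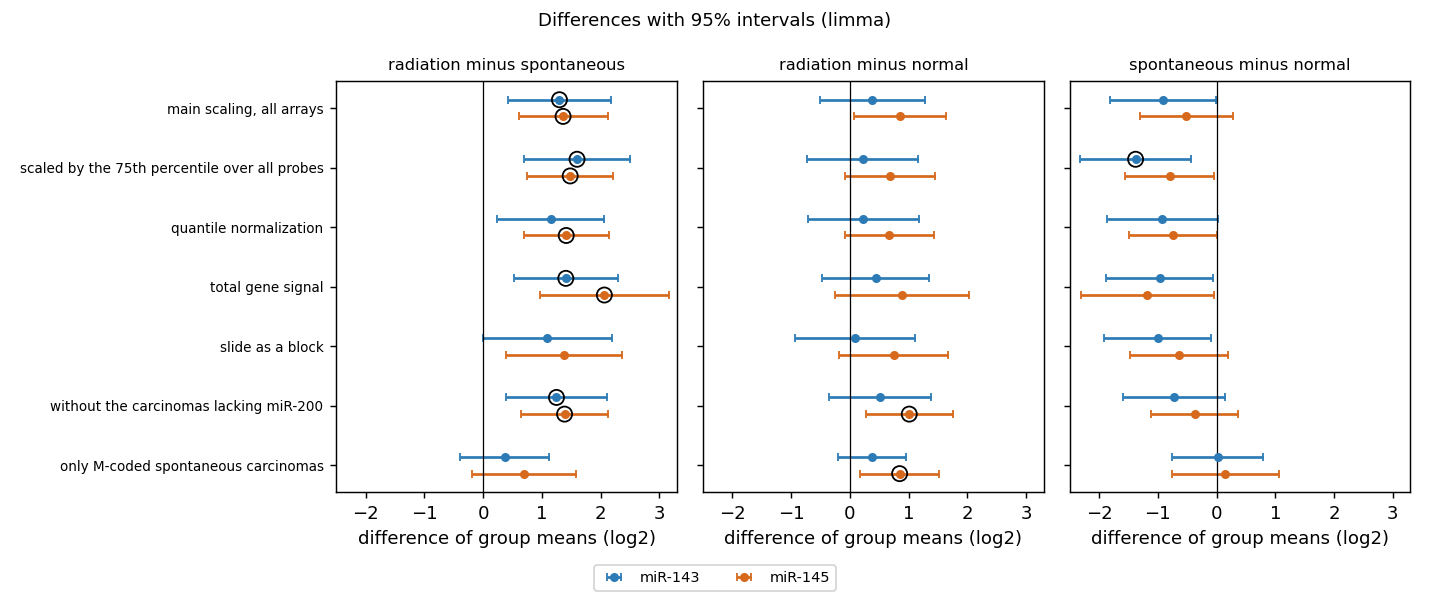
Differences between group means (log2, horizontal axis) of miR-143 (blue) and miR-145 (orange) in the 3 comparisons, with 95% intervals, for 7 ways to process or select the arrays; black rings mark an adjusted p under 0.05. The carcinoma groups differ by 1.30 and 1.36 in the top row and by 0.37 and 0.69 in the bottom row, where only M-coded spontaneous carcinomas are kept; the sign of miR-145 turned under a setting not drawn, normexp with an offset (-0.10).

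The pair moved together from array to array. The log2 signal of miR-143 minus that of miR-145 on the same array needs no scaling, except where miR-145 was floored after scaling. Its absolute size reflects the probes. It was 7.10 ± 0.37 (SD, n = 8) in the radiation-induced carcinomas, 7.57 ± 0.25 (SD, n = 7) in normal tissue and 7.16 ± 0.44 (SD, n = 8) in the spontaneous carcinomas with miR-145 floored. Over the 4 spontaneous arrays with miR-145 well above background it was 7.42 ± 0.12 (SD). It did not pass the test between any 2 groups: the difference was -0.06 for radiation-induced minus spontaneous (exact permutation adjusted p 0.764), -0.46 for radiation-induced minus normal (exact permutation adjusted p 0.0531) and -0.40 for spontaneous minus normal (exact permutation adjusted p 0.0846), adjusted over the 3 comparisons. The first value depends on the floor: without one it was -0.41 (exact permutation adjusted p 0.0312), and with only arrays well above background -0.31 (exact permutation adjusted p 0.218). Without the floor the difference for radiation-induced minus normal, at -0.46, had an exact permutation adjusted p of 0.0312. The value for spontaneous minus normal depends on the floor as well. Without the floor it was -0.05 (exact permutation adjusted p 0.677), and with only arrays well above background -0.15 (exact permutation adjusted p 0.3).

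Across the radiation-induced carcinomas the log2 signals of the pair had a Pearson r of 0.89 (exact permutation p 0.00441, adjusted 0.00685, n = 8) and a Spearman rho of 0.905 (exact permutation p 0.00456, adjusted 0.00685). Without the 2 arrays farthest from the median of miR-143, r was 0.915. Across the normal tissues r was 0.88 (exact permutation p 0.00317, adjusted 0.00685, n = 7) and rho 0.821 (exact permutation p 0.0341, adjusted 0.0341), with r 0.783 over the 5 arrays left without the 2 farthest. Both are measured on the same array after the same scaling, and the adjustment covers the 6 values computed over the 3 groups. The spontaneous carcinomas fell into separate sets of 3 and 5 arrays, so the r over all 8, although counted in the adjustment, is not given. None is given within either set. Of the 3 low arrays, carcinoma 1 had the most miR-143 signal (1113) and the least miR-145 signal (4.42), at a level not well above background.

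**Figure D3:**
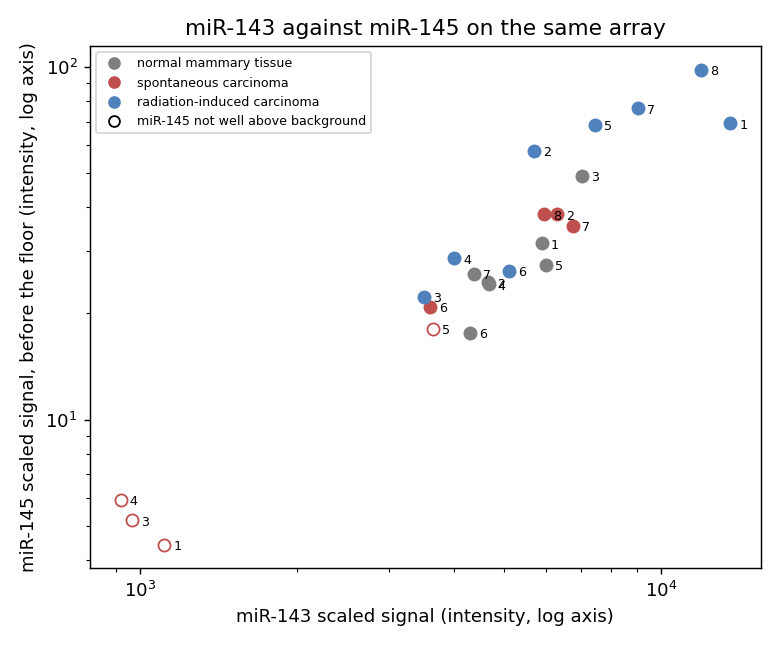
MiR-145 scaled signal before the floor (vertical, log axis) against miR-143 scaled signal (horizontal, log axis), 1 point per array, numbered within its group; open points mark arrays where miR-145 was not well above background. Spontaneous carcinomas 1, 3 and 4 lie apart at the lower left, with miR-143 from 917 to 1113 and miR-145 from 4.42 to 5.93.

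Each miRNA had a second, dimmer probe of the same array design. For miR-143 both probes were well above background on all 23 arrays and differed by 2.28 ± 0.05 on the log2 scale (SD), so they gave the same pattern. The dimmer probe put the difference between the carcinoma groups at 1.34 (limma adjusted p 0.0509, fitted with the dimmer probe of every miRNA). For miR-145 both probes were well above background on 13 arrays and differed there by 1.18 ± 0.09 (SD), and the dimmer probe gave 0.92 (limma adjusted p 0.0640). On 1 of 8 spontaneous arrays that dimmer probe was well above background, so its difference is set largely by the floor.

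The miRNAs whose log2 levels ran most like those of the pair over the 23 arrays were miR-497 (r 0.846 with miR-143 and 0.786 with miR-145), miR-195 (0.843 and 0.768), miR-204 (0.801 and 0.787), let-7i (0.779 and 0.703) and miR-205 (0.753 and 0.692). These were the first 5 of 197 other miRNAs for each of the pair, and the median r was -0.07 and -0.05. Between miR-143 and miR-145 r was 0.916. After group means were subtracted, the first 5 were again miR-204 (0.815), miR-195 (0.789), miR-497 (0.780), miR-205 (0.697) and let-7i (0.670) for miR-143. For miR-145 they were miR-195 (0.758), miR-497 (0.755), miR-204 (0.726), miR-326 (0.722) and miR-205 (0.630). All these values share the arrays and their scaling, and the 3 low spontaneous arrays weigh in each. The sequences below, from RefSeq with the seed in capitals, show that they do not share a seed with either of the pair.
rno-miR-497-5p: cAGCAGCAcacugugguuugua
rno-miR-195-5p: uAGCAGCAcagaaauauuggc
rno-miR-204-5p: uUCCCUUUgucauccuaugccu
rno-let-7i-5p: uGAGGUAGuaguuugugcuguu
rno-miR-205: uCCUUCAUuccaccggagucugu
Among them miR-497 and miR-195 have 1 seed in common, that of the miR-15/16 family, and are neighbours on chromosome 10, with hairpins 255 bases apart. The longest run that any of the 5 shares with miR-143 is 6 bases (miR-497), and with miR-145 it is 5 bases (miR-204 and let-7i).

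Of these, miR-497, miR-195, let-7i and miR-326 were higher in the radiation-induced than in the spontaneous carcinomas, by 1.56 ± 0.41, 1.49 ± 0.40, 0.82 ± 0.19 and 0.70 ± 0.23 on the log2 scale (SE; limma adjusted p 0.0182, 0.0184, 0.0121 and 0.0397). Over all 199 miRNAs tested, 8.04% were higher in that comparison. All but miR-326 were picked by levels that include the group difference, so a difference in the pair's direction is favoured by that choice. MiR-326 had a mean log2 level of 3.75 in the spontaneous carcinomas, near the floor of 3.29. Its probe was well above background there on 1 of 8 arrays, so the floor limits its difference. MiR-497 and miR-195, unlike the pair, also passed the test as lower in spontaneous carcinomas than in normal tissue, by -1.47 ± 0.42 and -1.54 ± 0.42 (SE; limma adjusted p 0.00811 and 0.00578), though whether they differ in this from the pair was not tested. MiR-204, an miRNA of the smooth muscle phenotype list described next, differed between the carcinoma groups by 2.31 ± 0.94 (SE; limma adjusted p 0.0823). MiR-205, an epithelial and myoepithelial miRNA, differed by 1.67 ± 0.81 (SE; limma adjusted p 0.142). Spontaneous carcinomas 1, 3 and 4 had the 3 lowest levels of their group for miR-497, miR-195, miR-204, miR-205 and let-7i, as for the pair. The radiation-induced carcinomas kept such an order only in part. Carcinoma 3, the lowest for the pair, was also the lowest of its group for miR-204 and miR-205. For miR-497 it had a level of 11.42, above the group's median of 11.40. Carcinomas 6 and 4, the next lowest for the pair, were the lowest for miR-497 and miR-195.

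**Figure D4:**
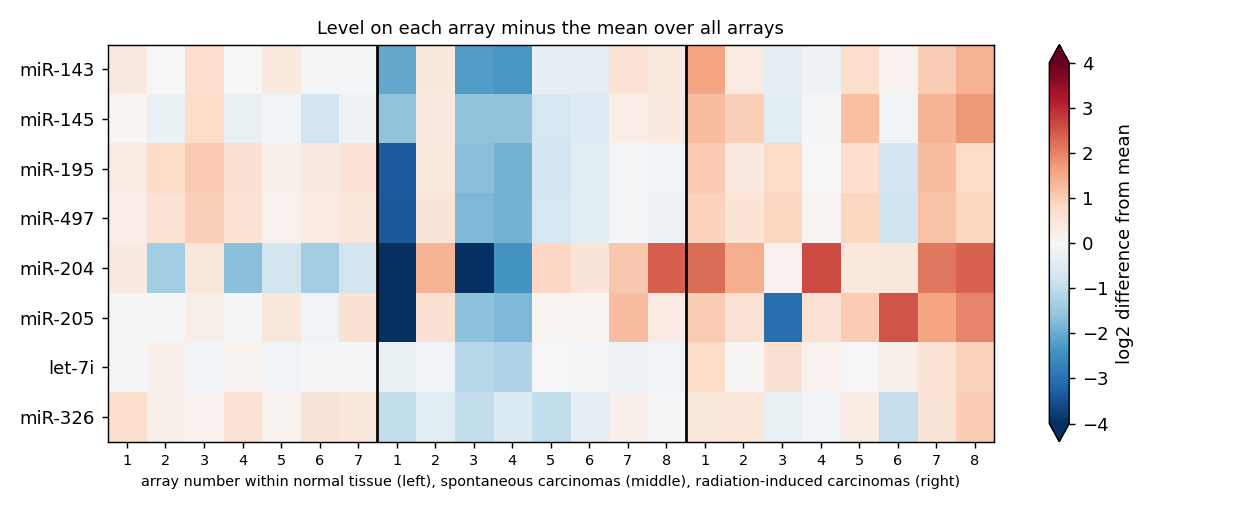
Log2 level minus the miRNA's mean over the 23 arrays (colour, red above and blue below the mean) of the pair and the 6 miRNAs most like it, by array; colours stop at 4 on either side, and miR-204 passes this in spontaneous carcinomas 1 and 3, and miR-205 in carcinoma 1. Spontaneous carcinomas 1, 3 and 4 are blue in all rows, and miR-143 in normal tissue is near its mean.

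MiRNAs known from work on the smooth muscle phenotype (the switch between contractile and dividing states) were called in each comparison for 2 or 3 of the 10 tested. Over all 199 miRNAs, 18.1% were called between the carcinoma groups. Against normal tissue 25.1% were called in the radiation-induced and 40.7% in the spontaneous carcinomas. Of the 11 listed (2 of which, miR-1 and miR-133a, are also striated muscle markers, and miR-146a a leukocyte marker), 10 were tested, and 2 of 10 were higher in radiation-induced than in spontaneous carcinomas, with a list median of 0.48 against -0.02 over all miRNAs. The 2 were miR-222, by 1.31 ± 0.31 (SE; limma adjusted p 0.0121), and miR-221, by 1.11 ± 0.31 (SE; limma adjusted p 0.0194), which share a cluster on the X chromosome and promote growth of smooth muscle cells. Striated and smooth muscle miR-1 differed by -0.69 ± 0.35 (SE; limma adjusted p 0.157), against the direction of the pair. Its mean log2 level was 3.33 in the radiation-induced and 4.02 in the spontaneous carcinomas, near the floor of 3.29. The floor therefore limits its differences, here and against normal tissue. Against normal tissue 1 was higher in the radiation-induced carcinomas, miR-221 by 1.05 (limma adjusted p 0.0225), and 2 were lower, miR-10a-5p by -2.24 (limma adjusted p 4.3e-05) and miR-1 by -1.10 (limma adjusted p 0.0320). In spontaneous carcinomas against normal tissue none was higher and 2 were lower, miR-10a-5p by -2.61 (limma adjusted p 2.5e-06) and miR-146a by -1.06 (limma adjusted p 0.0470). The list medians there were 0.29 and -0.28, against 0.14 and 0.23 over all miRNAs.

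MiR-16 is the third miRNA whose precursor p53 helps to process in human cells, and it did not differ past the threshold between the carcinoma groups (-0.07 ± 0.15, SE; limma adjusted p 0.792). It was higher in spontaneous carcinomas than in normal tissue by 0.41 ± 0.15 (SE; limma adjusted p 0.0371).

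Markers of other cell types in the tissue were measured beside the pair, and their part in its levels was not tested. None of the 4 fibroblast markers passed the test between the carcinoma groups (median difference 0.69). In spontaneous carcinomas against normal tissue, 14.6% of all 199 miRNAs were lower. Of these 4 markers 3 were lower there: miR-199a-3p by -2.01, miR-199a-5p by -1.80 and miR-214 by -1.61 (limma adjusted p 0.00578, 0.0104 and 0.0241). The summed scaled signal of these 4 ran from 674 to 6314 in the spontaneous carcinomas, from 976 to 22360 in the radiation-induced ones and from 4548 to 8415 in normal tissue. The arrays do not order as they do for the pair. Spontaneous carcinoma 1, low in the pair, had the highest fibroblast sum of its group (6314), carcinoma 7, with the most miR-143, had the lowest (674), and radiation-induced carcinoma 3, lowest of its group in the pair, had 22360. All 4 fibroblast markers were well above background on each of these arrays.

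The epithelial markers (the miR-200 family, miR-203 and miR-205) were nearly absent from 2 carcinomas. Their summed signal was 24.1 in spontaneous carcinoma 1 and 95.7 in radiation-induced carcinoma 3. On both arrays all 5 miR-200 family members lay at the floor. Every other carcinoma had a sum of at least 16629, above the highest normal sum of 11805. The medians were 18852, 18629 and 8416 in the spontaneous, radiation-induced and normal groups. The highest sums were 27013 in the spontaneous and 22595 in the radiation-induced group. Spontaneous carcinomas 3 and 4, low in the pair like carcinoma 1, had epithelial sums of 18916 and 27013 with 7 of 7 markers well above background. When spontaneous carcinoma 1 and radiation-induced carcinoma 3 were left out, the differences between the carcinoma groups were 1.25 for miR-143 and 1.39 for miR-145 (limma adjusted p 0.0367 and 0.0101). No epithelial marker passed the test in any of the 3 comparisons.

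Between the carcinoma groups no marker of endothelium (4 tested), striated muscle (3 tested), leukocytes (5 tested) or erythroid cells (2 tested) passed the test either, with median differences of 0.22, -0.69, 0.35 and -1.01. Of the 4 adipose markers 2 were lower in radiation-induced carcinomas, miR-107 by -0.56 and miR-103 by -0.52 (limma adjusted p 0.0250 and 0.0433). In that comparison 10.1% of all 199 miRNAs were lower. Against normal tissue the endothelial miR-126, miR-126* and miR-139-5p were lower in both carcinoma groups. The differences were -1.65, -1.62 and -1.48 in the spontaneous and -1.26, -1.37 and -1.27 in the radiation-induced carcinomas, with a highest limma adjusted p of 0.0101. Of all 199 miRNAs, 14.6% were lower in the spontaneous and 8.54% in the radiation-induced carcinomas against normal tissue. The remaining endothelial marker, miR-139-3p, did not pass, at 0.28 and -0.50 (limma adjusted p 0.783 and 0.640). In the spontaneous carcinomas miR-126* and miR-139-5p had mean log2 levels of 3.93 and 3.39, near the floor of 3.29. In the radiation-induced carcinomas these means were 4.17 and 3.59. The floor can therefore limit their differences in both groups. MiR-139-5p was well above background on no spontaneous array. The summed endothelial signal ran from 470 to 1156, from 372 to 2780 and from 1685 to 2513 in the spontaneous, radiation-induced and normal groups. Striated muscle markers summed to 13.6 to 152, 0.365 to 61.2 and 43.0 to 332 in the same order, with miR-133a well above background on no array. No striated muscle marker was well above background in spontaneous carcinoma 5 or radiation-induced carcinomas 2, 5 and 6. The lowest sums of both carcinoma groups are thus background values. Leukocyte markers summed to 311 to 4323, 1370 to 6737 and 2346 to 4975, and adipose markers to 2365 to 4603, 2051 to 2581 and 1630 to 3165. Against normal tissue miR-150, miR-223, miR-146a, miR-133b and miR-335 were lower in spontaneous carcinomas, by -2.17, -1.35, -1.06, -1.44 and -1.82. MiR-107 and miR-103 were higher there, by 0.61 and 0.53. The highest limma adjusted p among these was 0.0470. In that comparison 26.1% of all 199 miRNAs were higher and 14.6% lower. MiR-133b had a mean log2 level of 3.77 in the spontaneous carcinomas, near the floor. In radiation-induced carcinomas miR-150, miR-133b and miR-1 were lower, the last 2 near the floor. The other leukocyte, striated muscle, adipose and erythroid markers tested did not pass against normal tissue.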

How the data were processed

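Members and lists were chosen with earlier results of these data known. Small RNA was labelled at its 3′ end with Cy3, per the labels' protocols. The deposited scanner files hold spot intensity on a linear scale, as the authors' Feature Extraction software (Agilent, version 9.5.1.1) wrote it, per the file headers: background-subtracted within an array, not normalized between arrays. The authors' deposited table holds the total gene signal as intensity (lowest value 5), equal to the scanner files' within 1% for 100% of higher values, and served as an alternative.

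Unflagged spots were averaged per probe. A probe counted as detected (35.7% of values) where over 0.5 of its spots were well above background. Scaling used the 75th percentile of the 199 probes that every array detected; values were floored at 9.81 and log2-transformed. Each miRNA was represented by its brightest probe, and the 199 miRNAs detected on at least 7 arrays were tested. Limma 3.58.1 (R 4.3.3) fitted 1 mean per group over 23 arrays (total degrees of freedom 22.5), with Benjamini-Hochberg adjustment within each comparison and a threshold of 0.05. The number of arrays limits the precision. Arrays lie on 4 slides (numbered 1 to 4). Scaling, background, floor, probe choice, slide, brightness and single arrays were varied. The text names the pair, up to 4 members per list with the smallest p (and all of any count of 5 or fewer), and the 5 miRNAs most correlated with each of the pair.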

Additional observations from a re-analysis of the deposited data

How the results depend on the processing

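Settings were changed 1 at a time, except that the authors' deposited table differs in both the summary over probes and the lack of scaling; the cause of a change was not tested except where stated. For radiation-induced minus spontaneous, miR-143 kept its direction in 42 of 42 alternatives and its call in 25 (adjusted p from 0.00163 to 0.577). It lost the call with quantile normalization (1.15), the raised floor (1.30), the dimmer probe (1.34), the compared groups alone (1.30), brightness as a covariate (0.88), slide as a block (1.09), only M-coded spontaneous carcinomas (0.37), slide 4 alone (0.64) and the exact permutation test (1.30); with single arrays left out it ran from 1.07 to 1.48. MiR-145 kept its direction in 41 of 42 and its call in 34 (adjusted p from 0.00135 to 0.641). It turned to -0.095 with normexp and an offset of 50, which after scaling adds a median of 77.7 to spontaneous, 44.5 to radiation-induced and 35.1 to normal arrays; normexp without an offset, chosen after seeing the data like the lowered floor and the dimmer probe, gave 0.80 (limma adjusted p 0.0358). It lost the call with the raised floor (0.69), the dimmer probe (0.92), the compared groups alone (1.36), brightness (0.73), slide (1.38), M-coded only (0.69) and slide 4 alone (0.94), and ran from 1.22 to 1.52 with single arrays left out.

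For radiation-induced minus normal, miR-143 turned to -0.031 without scaling and to -0.010 in the authors' deposited table, and ran from 0.24 to 0.52 with single arrays left out. MiR-145 passed with normexp and an offset (0.60), the raised floor (0.69), brightness (1.13), without the carcinomas lacking miR-200 (1.01) and with only M-coded spontaneous carcinomas in the fit (0.85), and ran from 0.71 to 1.01. For spontaneous minus normal, miR-143 passed with the percentile over all probes (-1.38), without scaling (-2.27), with normexp and an offset (-0.92) and in the authors' deposited table (-2.24), turned to 0.018 with only M-coded carcinomas and 0.27 on slide 4 alone, and ran from -1.10 to -0.69. MiR-145 passed without scaling (-1.49) and in the authors' deposited table (-1.87), passed in the opposite direction with normexp and an offset (0.69, limma adjusted p 0.000523), turned to 0.0056 with the raised floor, 0.40 with brightness, 0.15 with only M-coded carcinomas and 0.23 on slide 4 alone, and ran from -0.65 to -0.37.

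The within-array difference, miR-143 minus miR-145, for radiation-induced minus spontaneous was 1.38 with normexp and an offset, 0.074 with the mean over probes, 0.61 with the raised floor, 0.42 with the dimmer probes, -0.66 with the total gene signal and -0.41 with a floor of 1, the last 2 and the first past the threshold; it ran from -0.15 to 0.0092 with single arrays left out. For radiation-induced minus normal it passed with the total gene signal (-0.45) and the floor of 1 (-0.46), and ran from -0.54 to -0.40, passing without radiation-induced carcinoma 1 or 6, normal tissue 3 or spontaneous carcinoma 5 (the last through the adjustment alone). For spontaneous minus normal it passed with normexp and an offset (-1.62) and without spontaneous carcinoma 5 (-0.47), was 0.21 with the total gene signal and 0.037 on slide 4 alone, and ran from -0.47 to -0.31 with single arrays left out.

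The counts of miRNAs called (36, 50 and 81) ranged over these settings from 0 to 104, 0 to 95 and 0 to 144. Without scaling the median of all miRNAs shifted to 0.81, -0.21 and -0.98, and the calls split into 99 higher and 0 lower, 4 and 23, and 4 and 112, against 16 and 20, 33 and 17, and 52 and 29. With the percentile over all probes they split into 29 and 5, 16 and 19, and 25 and 57, and with normexp and an offset into 11 and 93, 43 and 10, and 122 and 22. No paired analysis was possible because the carcinomas carry no replicate numbers shared with the normal tissues. Within slides the groups hold 1 to 5 arrays, and miR-145 signals of up to 18.1 on spontaneous arrays were not well above background.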
